A study of Mus musculus with 12 samples.

Results

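The collagen genes are the genes for the chains of the collagen family, taken here as every protein-coding mouse gene whose symbol reads Col, a type number, the letter a and a chain number. By this rule 44 of the 49585 genes in the count data were members. RNA sequencing counts were available for the adrenal cortex of 12 mice. Of these, 4 mice were fed a low-fat diet (LFD, called a normal diet in the labels) for 20 weeks, 4 a high-fat diet (HFD) for 20 weeks, and 4 the HFD with icosapent ethyl, an ethyl ester of the omega-3 fatty acid eicosapentaenoic acid, added over the last 10 weeks. The labels of all 12 mice give the genotype Fads2-/-, whereas the study's methods describe male wild-type C57BL/6J mice. *Fads2* was read in each library, at 455 to 2200 CPM (counts scaled to the size of each library), so the genotype of the mice is given here only as labelled. Replicates are separately labelled cortex samples, and p-values measure the spread between them.

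Collagens are built from 3 alpha chains wound into a triple helix, and many types need chains from different genes. Fibrillar collagens such as types I, III and V form the cables of connective tissue, and type IV forms the sheet-like network of basement membranes around vessels and epithelial cells. Type VI forms beaded microfilaments next to basement membranes, and other types coat fibrils, span the cell membrane or carry the endostatin fragment. In the adrenal, steroid-producing cells lie in cords beside a dense bed of thin-walled sinusoids, under a connective tissue capsule.

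The promoters of 5 members, chosen after their values were seen, are printed here because the account turns on these genes, each as the 300 bases in RefSeq that run from 250 bases before the annotated start to 50 bases from it on (build GRCm38.p6, 5′ to 3′ on the strand of the gene). *Col4a1* (chr8:11312777-11313076, minus strand) and *Col4a2* (chr8:11312555-11312854, plus strand) are shown because they face away from each other out of the same stretch of DNA, and the capitals mark the 78 bases that both windows share. The annotated genes overlap by 22 bp at their 5′ ends. In *Col5a3* (chr9:20815018-20815317, minus strand) and *Col8a2* (chr4:126286544-126286843, plus strand) the capitals mark GC boxes (GGGCGG on either strand). In *Col6a1* (chr10:76725995-76726294, minus strand), the member with the highest level per length, they mark the only AP-1 motif (TGACTCA on either strand).
*Col4a1*: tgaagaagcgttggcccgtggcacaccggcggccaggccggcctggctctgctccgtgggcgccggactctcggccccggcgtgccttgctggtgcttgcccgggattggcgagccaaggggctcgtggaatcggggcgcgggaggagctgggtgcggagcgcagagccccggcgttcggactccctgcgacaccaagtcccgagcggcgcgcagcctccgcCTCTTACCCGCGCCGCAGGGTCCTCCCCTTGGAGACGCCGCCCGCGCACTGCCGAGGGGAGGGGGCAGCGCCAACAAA
*Col4a2*: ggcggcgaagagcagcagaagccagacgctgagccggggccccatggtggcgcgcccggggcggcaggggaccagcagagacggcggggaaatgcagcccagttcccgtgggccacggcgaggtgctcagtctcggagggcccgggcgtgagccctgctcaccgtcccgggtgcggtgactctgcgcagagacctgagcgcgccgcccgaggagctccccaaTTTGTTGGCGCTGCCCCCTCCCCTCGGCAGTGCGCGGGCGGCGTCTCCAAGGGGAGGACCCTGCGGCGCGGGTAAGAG
*Col5a3*: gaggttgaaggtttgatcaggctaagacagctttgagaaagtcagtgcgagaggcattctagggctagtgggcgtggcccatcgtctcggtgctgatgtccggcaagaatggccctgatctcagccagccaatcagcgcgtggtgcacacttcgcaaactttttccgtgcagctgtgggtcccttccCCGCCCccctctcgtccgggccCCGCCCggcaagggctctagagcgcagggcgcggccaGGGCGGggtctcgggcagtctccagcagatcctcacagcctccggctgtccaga
*Col6a1*: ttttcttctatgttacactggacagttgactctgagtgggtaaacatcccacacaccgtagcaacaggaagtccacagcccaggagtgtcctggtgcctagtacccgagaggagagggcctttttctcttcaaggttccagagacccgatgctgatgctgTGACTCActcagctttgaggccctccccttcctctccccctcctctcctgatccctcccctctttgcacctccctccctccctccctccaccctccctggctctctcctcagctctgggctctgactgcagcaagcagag
*Col8a2*: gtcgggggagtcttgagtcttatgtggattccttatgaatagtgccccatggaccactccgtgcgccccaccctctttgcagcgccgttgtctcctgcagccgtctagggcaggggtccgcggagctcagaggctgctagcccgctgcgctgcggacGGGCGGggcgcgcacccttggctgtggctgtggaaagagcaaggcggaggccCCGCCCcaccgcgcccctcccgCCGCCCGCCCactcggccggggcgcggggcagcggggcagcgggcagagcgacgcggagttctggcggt

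Of the 44 members, 35 had a window in the promoter table, and so had 28 of the 34 members that were abundant enough to test. The GC box occurred in 21 of the 30 windows of these 28 genes (70.0%) and in 35.7% of the 32851 windows of that length in the table. The CCAAT box (CCAAT) was found in 33.3% and 37.4%, the TATA box (TATAAA) in 6.67% and 13.6%, the AP-1 motif in 3.33% and 5.2%, and the nuclear receptor half-site AAGGTCA in 10.0% and 4.72%. These are matches of letters on either strand and were not tested against levels. The member windows were limited to genes abundant enough to test, whereas the 32851 windows were not, so the shares cover unlike sets.

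Each library held 34785979 to 67295963 counts, with 20812 to 21634 genes detected, and no pair of libraries matched within sampling noise. The 9 defining cortical genes summed to 44830 to 73760 CPM in LFD, 59400 to 102400 in HFD and 61000 to 96530 in HFD with icosapent ethyl, so the cortex label held in each mouse. All 9 were above 0 in HFD versus LFD. None of the 9 passed by edgeR, and DESeq2 called 2, against 12.3% of all genes. Markers of chromaffin cells, which make up the adrenal medulla, summed to 6106 to 21950 CPM in LFD, 3003 to 9785 in HFD and 5313 to 10570 in HFD with icosapent ethyl, so medullary RNA was present in every cortex library, and the groups overlapped. All 8 chromaffin markers were below 0 in HFD versus LFD (median log2 fold change -1.28), where 51.8% of all genes were below 0. None of the 8 passed by edgeR, and DESeq2's Wald test called 4, against 12.3% of all genes. No list of marker genes was at 0. In such bulk tissue, fewer cells of a type and less RNA per cell cannot be told apart.

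Collagen RNA in the adrenal cortex was mostly that of basement membrane and microfilament chains. Per kilobase of exon, *Col6a1*, a chain of type VI collagen, stood first with a mean of 107.6 CPM per kilobase over the 12 mice. It was followed by *Col4a1* at 84.3 and *Col4a2* at 45.0, the major chains of type IV. *Col5a3*, a type V chain of restricted expression, followed at 17.5 and *Col18a1*, which holds the endostatin domain, was next at 17.3. The ranges of *Col5a3* and *Col18a1* over the 12 mice overlapped. *Col15a1*, its relative, stood at 7.997, *Col5a1* at 7.10 and *Col16a1*, a fibril-associated chain, at 6.74. The type I chains that dominate most connective tissues were lower per kilobase, at 6.23 for *Col1a2* and 4.52 for *Col1a1*, and *Col3a1* stood at 2.79. The other 23 tested members lay between 0.0797 (*Col6a6*) and 3.34 (*Col13a1*, a transmembrane chain). These ranks depend on the exon length, a union over all transcripts, which was 12426 bp for *Col1a2* and 6563 bp for *Col1a1*. In CPM without length, *Col1a2* (77.4) lay above *Col5a1* (60.3), *Col15a1* (50.8) and *Col16a1* (45.5), and *Col1a1* (29.7) below them.

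**Figure D1:**
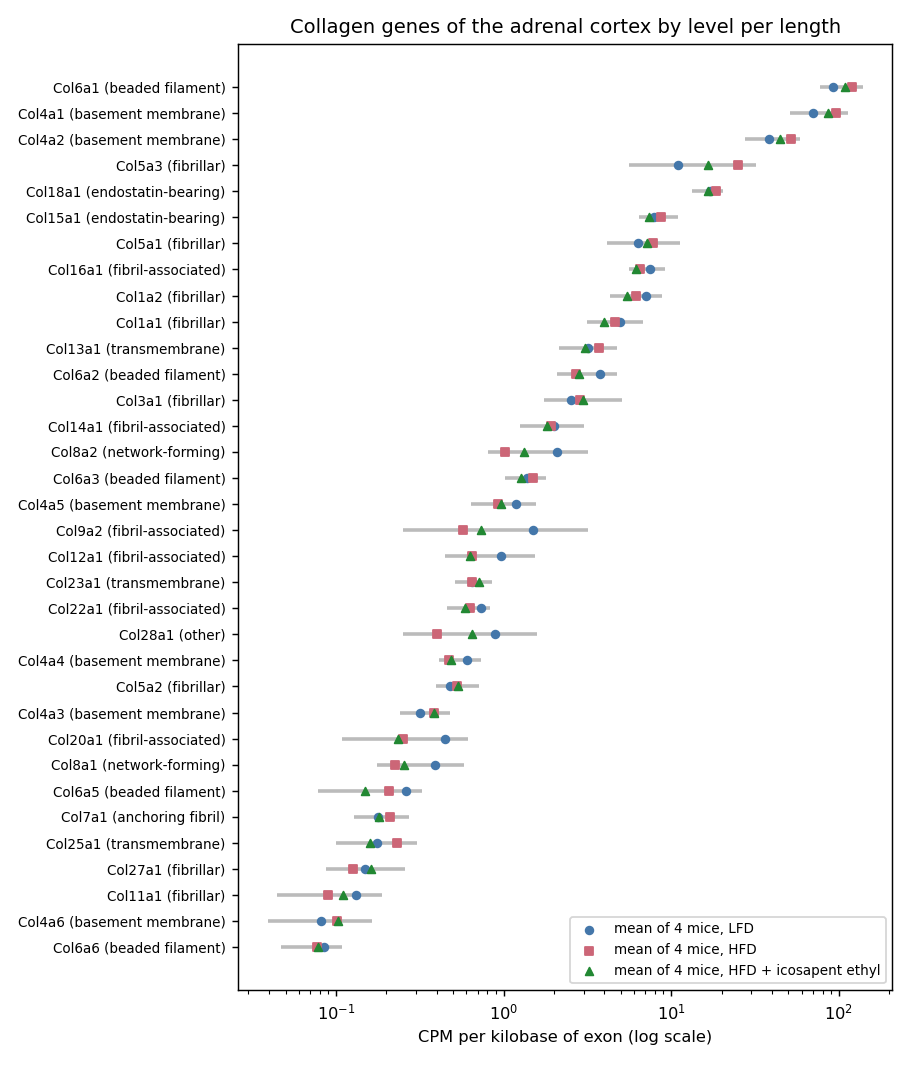
Level of the 34 tested collagen genes in CPM per kilobase of exon (log scale), with the mean of 4 mice per group as symbols and the range over all 12 mice as gray bars. *Col6a1*, *Col4a1* and *Col4a2* lie highest, at means of 107.6, 84.3 and 45.0, and *Col5a3* and *Col9a2* have some of the widest ranges.

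The sum over all 44 collagens was 1838 ± 275 CPM (SD, n = 4) in LFD, 2327 ± 229 in HFD and 2050 ± 284 in HFD with icosapent ethyl. The lowest HFD mouse (2028) lay below the highest LFD mouse (2149), so the groups overlapped. Basement membrane chains made up 43.4%, 46.5% and 46.5% of the collagen CPM in these groups, and fibrillar chains 15.3%, 16.3% and 14.9%. The 9 fibril-associated members summed to 92.7 ± 9.28 CPM in LFD, 76.5 ± 4.15 in HFD and 73.2 ± 7.47 in HFD with icosapent ethyl. The 2 network-forming type VIII chains with *Col10a1* summed to 12.4 ± 4.75, 6.38 ± 1.36 and 7.92 ± 2.96 CPM. In both of these sums the highest HFD mouse (82.55 and 7.996) lay above the lowest LFD mouse (81.97 and 7.779), so LFD and HFD overlapped.

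Too low to test were 10 members, with at most 17 counts in any mouse, and 34 passed the filter on low counts. The untested members were *Col2a1*, *Col6a4*, *Col9a1*, *Col9a3*, *Col10a1*, *Col11a2*, *Col17a1*, *Col19a1*, *Col24a1* and *Col26a1*. They include chains known from cartilage (*Col2a1*, *Col9a1*, *Col9a3*, *Col10a1*, *Col11a2*). *Col2a1*, *Col9a1* and *Col24a1* had 1 count in 1 mouse each. A count of 0 in a library allows a level of up to 0.0446 to 0.0862 CPM, from counting error alone.

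The comparison of HFD with LFD addressed whether long-term high-fat feeding was accompanied by other RNA levels in the cortex. No collagen gene passed the threshold of an adjusted p of 0.05 in edgeR's quasi-likelihood test, against 1.45% of the 15909 genes tested (230 genes, 0.974% higher and 0.471% lower in HFD), and the lowest adjusted p of a member was 0.0839. At an unadjusted p below 0.05 there were 10 of 34 members (29.4%), 4 higher and 6 lower in HFD, where the background over all genes was 24.8%. In 3 members (8.82%) the 4 HFD mice did not overlap with the 4 LFD mice, where 13.6% of all genes did so. The median log2 fold change was -0.08 over the 34 members, with 19 below 0 (55.9%), and -0.01 over all genes, with 51.8% below 0. By DESeq2's Wald test, which called 12.3% of the 15924 genes it gave an adjusted p, 2 members passed: *Col5a3* (adjusted p = 0.00822) and *Col8a2* (adjusted p = 0.00830).

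**Figure D2:**
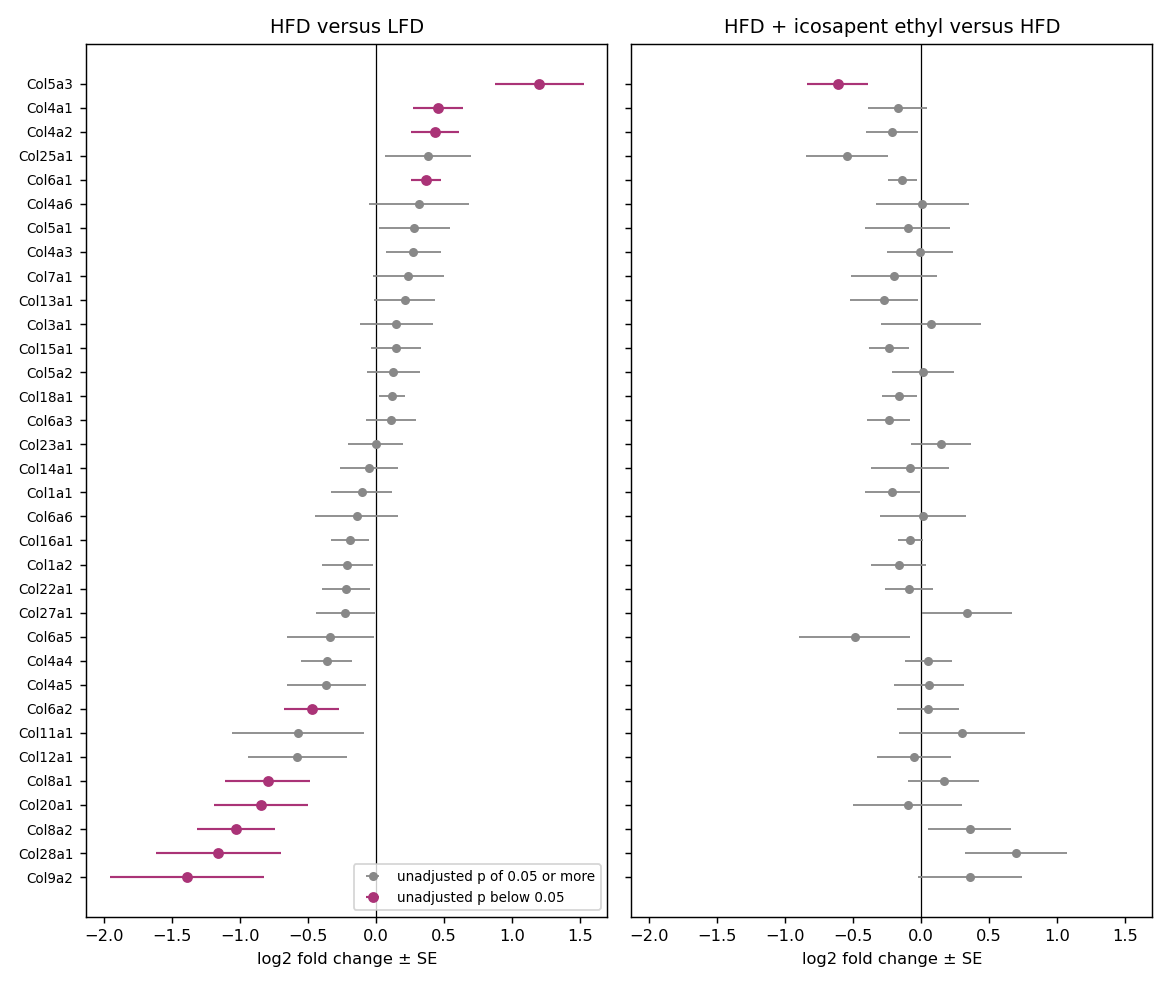
Log2 fold change with its SE for the 34 tested collagen genes in HFD versus LFD (left, the order of the rows) and in HFD with icosapent ethyl versus HFD (right), from edgeR with 4 mice per group. Members with an unadjusted p below 0.05 are purple, 10 on the left and 1 on the right (*Col5a3*), and no member passed an adjusted p of 0.05 in either panel.

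Among the fibrillar collagens, *Col5a3* differed most. Its level was 38.0, 131, 64.6 and 64.8 CPM in the 4 LFD mice, 139, 219, 156 and 172 in the 4 HFD mice, and 158, 80.6, 122 and 87.9 in the 4 mice given icosapent ethyl. Every HFD mouse lay above every LFD mouse, and the mice given icosapent ethyl spread across both. The log2 fold change of HFD over LFD was 1.201 (SE 0.33, 95% interval 0.46 to 1.94, adjusted p = 0.0839). Leaving out any single mouse kept it between 0.99 and 1.61. The partner chains of type V collagen were much nearer 0 in the same contrast, with log2 fold changes of 0.28 (SE 0.26) for *Col5a1* and 0.13 (SE 0.19) for *Col5a2*. The chains of the abundant fibrils were also near 0, at -0.11 (SE 0.22) for *Col1a1*, -0.21 (SE 0.19) for *Col1a2* and 0.15 (SE 0.27) for *Col3a1*. *Col11a1* (-0.57) and *Col27a1* (-0.22) were low in level.

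Type IV collagen is the network of the basement membrane, with *Col4a1* and *Col4a2* in nearly all tissues and the other chains in fewer. *Col4a1* was at 384, 636, 467 and 614 CPM in LFD, 545, 725, 769 and 847 in HFD, and 603, 419, 694 and 845 in HFD with icosapent ethyl. *Col4a2* was at 183, 314, 227 and 290 CPM in LFD, 270, 356, 361 and 386 in HFD, and 300.5, 198, 318 and 371 with icosapent ethyl. In both genes 3 of the 4 HFD mice lay above all LFD mice, and HFD mouse 1 lay within the LFD range. Their log2 fold changes were 0.46 (SE 0.19, adjusted p = 0.174) and 0.44 (SE 0.18, adjusted p = 0.173) by edgeR. *Col4a3*, *Col4a4*, *Col4a5* and *Col4a6*, the minor chains, gave 0.28, -0.36, -0.37 and 0.32, with SEs of 0.19 to 0.36. Thus 4 of the 6 type IV members were above 0 and 2 below, and none passed the adjusted threshold.

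In type VI collagen the chains differed in sign. *Col6a1* was at 338, 460, 408 and 421 CPM in LFD and 508, 609, 492 and 501 in HFD, with no overlap between the groups, and at 547, 414, 498 and 459 with icosapent ethyl. Its log2 fold change was 0.37 (SE 0.11, adjusted p = 0.0978 by edgeR). *Col6a2*, whose product joins *Col6a1* in the same microfilament, had 39.6, 28.9, 24.1 and 32.2 CPM in LFD and 26.7, 27.6, 18.8 and 17.3 in HFD. Here 2 of the 4 HFD mice lay below all LFD mice, and the log2 fold change, -0.47 with an SE of 0.20, had an adjusted p of 0.190 by edgeR. *Col6a3* stood at 0.11 (SE 0.18), and *Col6a5* and *Col6a6*, low alternatives to it, at -0.34 and -0.14.

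The network-forming type VIII chains, known from vessel walls and Descemet's membrane, had lower values in HFD. *Col8a2* was at 14.4, 8.06, 5.90 and 8.99 CPM in LFD, 5.02, 5.78, 3.61 and 3.99 in HFD, and 7.51, 8.43, 3.61 and 4.07 with icosapent ethyl. All HFD mice lay below all LFD mice, although the highest HFD value was close to the lowest LFD value. Its log2 fold change was -1.03 (SE 0.29, 95% interval -1.68 to -0.38, adjusted p = 0.0874), and that of *Col8a1* was -0.80 (SE 0.31, adjusted p = 0.165).

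All 6 tested fibril-associated members had log2 fold changes below 0 in HFD, where 51.8% of all genes did. *Col9a2* was at -1.39 (SE 0.57) and *Col20a1* at -0.85 (SE 0.34), with adjusted p = 0.175 and 0.174 by edgeR. *Col12a1*, *Col22a1*, *Col16a1* and *Col14a1* followed at -0.58, -0.22, -0.19 and -0.05. *Col9a2* was at 9.90, 3.65, 3.08 and 1.83 CPM in LFD and 3.02, 1.65, 1.65 and 0.775 in HFD. LFD mouse 2 stood far above the other mice, and without it the log2 fold change was -0.68. *Col28a1*, a beaded-filament-like collagen of peripheral nerve, had the same high mouse, with 7.73, 4.62, 3.24 and 1.73 CPM in LFD and 3.08, 1.61, 1.89 and 1.23 in HFD. Its log2 fold change was -1.16 (SE 0.46, adjusted p = 0.168 by edgeR) and -0.71 without LFD mouse 2.

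The transmembrane chains *Col13a1*, *Col23a1* and *Col25a1* gave 0.21, 0.00 and 0.38. The endostatin-bearing chains *Col15a1* and *Col18a1* gave 0.15 (SE 0.18) and 0.12 (SE 0.10), and the anchoring fibril chain *Col7a1* gave 0.24 (SE 0.26). For *Col18a1* the 95% interval of -0.10 to 0.33 was among the narrowest.

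**Figure D3:**
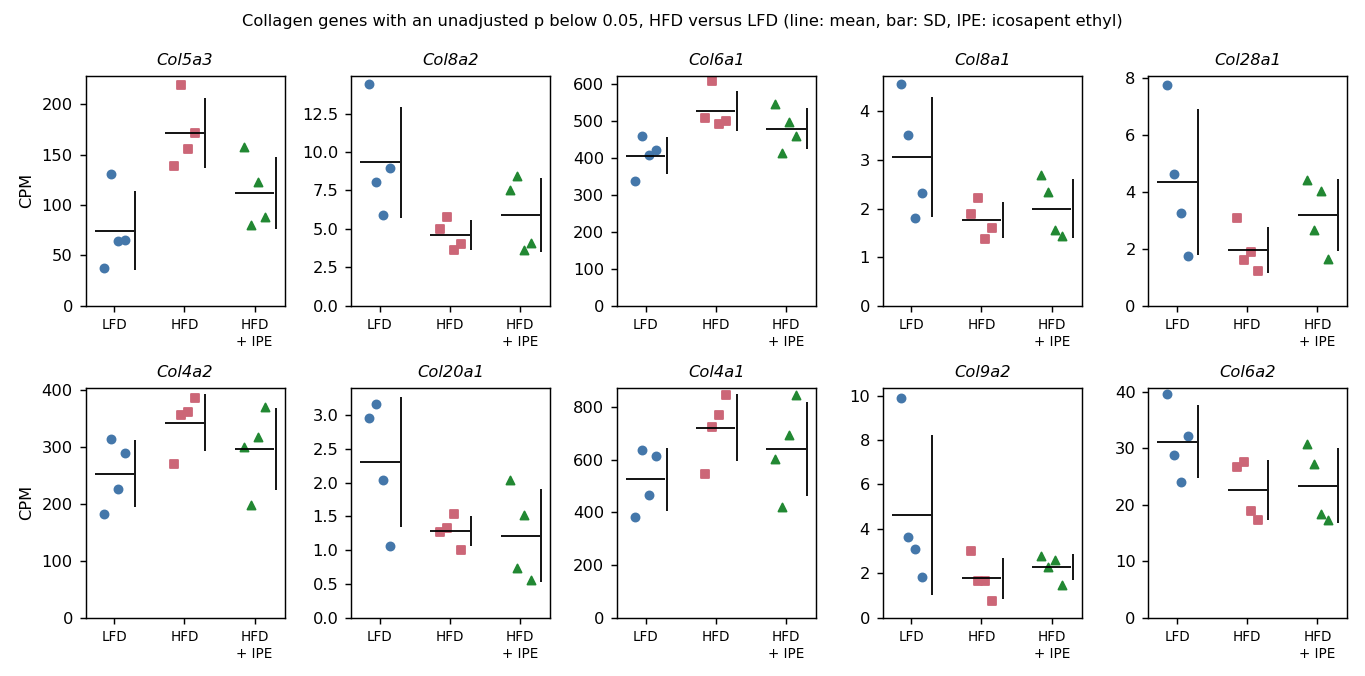
CPM in each mouse (symbols) for the 10 collagen genes with an unadjusted p below 0.05 in HFD versus LFD, with the group mean as a line and the SD as a bar, on axes that start at 0 (n = 4 per group). The HFD and LFD mice do not overlap in *Col5a3*, *Col8a2* and *Col6a1*, and LFD mouse 2 is the highest in *Col8a2*, *Col8a1*, *Col28a1*, *Col9a2* and *Col6a2*.

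The values of medullary and nerve markers moved with several of these genes. With the chromaffin marker mean as a covariate no gene of the 15909 passed in HFD versus LFD, the log2 fold changes of *Col9a2* and *Col28a1* were -0.30 and -0.21, and that of *Col11a1* was 0.39. Those of *Col4a1* and *Col4a2* were both 0.18 with that covariate, and that of *Col20a1* was -0.33, whereas *Col8a2* was at -1.06 and *Col5a3* at 0.87. With the adipocyte marker mean as a covariate 8 members passed (23.5% of 34), where 16.5% of all genes did. They were *Col6a1*, *Col5a3*, *Col4a1* and *Col4a2*, higher in HFD, and *Col20a1*, *Col9a2*, *Col8a2* and *Col28a1*, lower. Adipocyte markers summed to 242 to 399 CPM in LFD and 368 to 445 in HFD. Fibroblast markers summed to 396 to 698 CPM in LFD and 252 to 417 in HFD, with 7 of 8 below 0, and capsule markers to 106 to 234 and 84.0 to 129, with 5 of 5 below 0. Mural markers summed to 249 to 310 and 210 to 258, endothelial markers to 981 to 1440 and 1041 to 1327, mesothelial markers to 9.48 to 15.8 and 13.1 to 21.6, and macrophage markers to 544 to 799 and 371 to 437 CPM. Of the genes on these lists *Cd68*, *C1qa* and *Lyz2*, all macrophage markers, passed the test by edgeR, and all 3 fell. They are 3 of the 7 macrophage markers tested, where 1.45% of all genes passed. Of the 7 macrophage markers, 5 were below 0 and 2 above. DESeq2, which called 12.3% of all genes, called 4 of 8 fibroblast, 2 of 5 capsule, 2 of 8 mural and 3 of 7 macrophage markers, all lower. It called 3 of 8 adipocyte markers (2 higher, 1 lower), 1 of 5 mesothelial markers (higher) and 0 of 8 endothelial markers. The most abundant marker of the cortex, *Star*, was at 0.92, that of chromaffin cells, *Chgb*, at -1.27 and that of fibroblasts, *Gsn*, at -0.83. None of these 3 passed by edgeR, and DESeq2 called *Chgb* (adjusted p = 0.0493) and *Gsn* (adjusted p = 0.00859). Their part in the collagen values was not tested.

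Schwann cells are the glia of peripheral nerve, and their list was correlated with the members, as was the chromaffin list. Their 6 markers summed to 35.6, 16.9, 15.9 and 7.45 CPM in the LFD mice and 14.8, 6.96, 5.95 and 5.01 in HFD. With icosapent ethyl they summed to 14.7, 11.3, 14.96 and 7.05. All 6 were below 0 in HFD versus LFD (median log2 fold change -1.37). None passed by edgeR, and DESeq2 called 3 of the 6, against 12.3% of all genes. Over the 12 mice the mean log2 level of these markers correlated with *Col28a1* (Pearson's r = 0.967, permutation p = 1e-05, Spearman's rho = 0.902, permutation p = 0.00015) and *Col9a2* (r = 0.964, permutation p = 1e-05, rho = 0.979, permutation p = 1e-05). The value 1e-05 is the smallest that the 100000 resamples can give. Adjusted over the 68 relations of 34 members with the chromaffin and Schwann lists, the Pearson p was 0.00034 for both, by permutation. Without LFD mouse 2 and HFD mouse 4, the mice farthest from the median, r was 0.928 and 0.970. *Col11a1* had r = 0.885 and rho = 0.867, with adjusted permutation p = 0.00272 and 0.00918, and r = 0.859 without those mice. After subtraction of each group's mean the 3 values of r were 0.958, 0.953 and 0.875. With the chromaffin markers *Col28a1*, *Col9a2* and *Col11a1* had r = 0.820, 0.799 and 0.781 (adjusted permutation p = 0.0151, 0.0151 and 0.0277).

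*Col4a1* and *Col4a2* ran against the Schwann markers, with r = -0.776 and -0.755, and rho = -0.776 and -0.755 (adjusted permutation p = 0.0277 and 0.0334 for r). Without the same 2 mice r was -0.565 and -0.513, so these relations rested in part on them. With the chromaffin markers the 2 genes had r = -0.745 and -0.739 (adjusted permutation p = 0.04325 for both). For rho the adjusted permutation p was 0.0655 and 0.0726. *Col8a1* rose with the Schwann markers (r = 0.720, adjusted permutation p = 0.0479), and r was 0.440 without LFD mouse 2 and HFD mouse 4. Its rho of 0.643 had an adjusted permutation p of 0.125. In all, 6 of 34 members passed an adjusted p of 0.05 with the Schwann list and 5 of 34 with the chromaffin list by Pearson's r. Of these, 5 and 3 also passed by Spearman's rho. No such share was computed over all genes, so these counts cannot be called high or low. These relations were computed after the data were seen, and CPM share a total, so a gene can vary against another through the total alone.

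**Figure D4:**
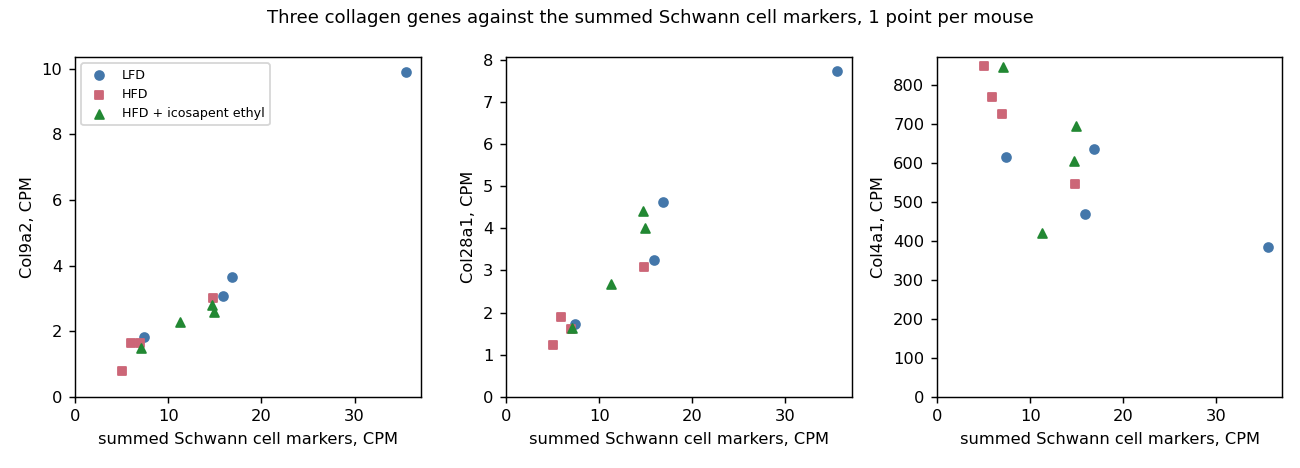
CPM of *Col9a2*, *Col28a1* and *Col4a1* against the summed CPM of 6 Schwann cell markers, 1 point per mouse, colored by group. The first and second genes rise with the markers across all 3 groups (r of 0.964 and 0.967 on the log2 scale), *Col4a1* runs the other way (r of -0.776), and the point farthest right is LFD mouse 2.

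Chains that assemble into 1 molecule kept a narrow ratio for *Col4a1* with *Col4a2* and for type I, and a wider one in other pairs. The ratio of *Col4a1* to *Col4a2* per kilobase lay between 1.78 and 2.02 in all 12 mice, and the 2 genes had r = 0.990 and rho = 0.993 (permutation p = 1e-05 for both, and 0.982 for r without LFD mouse 2 and mouse 2 of the icosapent ethyl group). The ratio of *Col1a1* to *Col1a2* lay between 0.629 and 0.774, with r = 0.963 and rho = 0.944 (permutation p = 3e-05 for both). For *Col8a2* and *Col8a1* r was 0.922 and rho 0.881 (permutation p = 2e-05 and 0.00036), and for *Col5a1* and *Col5a2* 0.824 and 0.776 (permutation p = 0.00162 and 0.00441). Without the 2 mice farthest from the median these were 0.941, 0.856 and 0.702 for r. Of the 10 pairs examined, these 4 passed after adjustment over them. The ratios of the last 2 ranged more widely, from 3.99 to 6.77 for *Col8a2* to *Col8a1* and from 9.645 to 18.04 for *Col5a1* to *Col5a2*.

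*Col6a1* exceeded *Col6a2* by 16.2 to 55.0 times per kilobase. That ratio was 16.2 to 32.2 in LFD, 36.1 to 55.0 in HFD and 28.9 to 51.6 with icosapent ethyl, so the LFD and HFD mice did not overlap. The ratio of *Col6a2* to *Col6a3* was 2.25 to 3.12 in LFD, 1.60 to 1.95 in HFD and 1.71 to 2.87 with icosapent ethyl. The ratio of *Col4a3* to *Col4a4*, head-to-head neighbours with 71 bp between them, was 0.403 to 0.645 in LFD and 0.672 to 1.01 in HFD. The ratio of *Col4a5* to *Col4a6*, with 1308 bp between them, was 12.4 to 21.8 in LFD and 6.76 to 10.6 in HFD. For *Col5a3* to *Col5a1* it was 0.997 to 2.24 in LFD and 2.25 to 4.75 in HFD, which only just failed to overlap. Ratios are a description, and no background over other gene pairs was computed. Their size depends on the exon length used, the union of the exons of all transcripts. It was 4380 bp for *Col6a1* and 8326 bp for *Col6a2*. In CPM, without division by length, the means of these 2 genes over the 12 mice were 471.2 and 25.7.

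**Figure D5:**
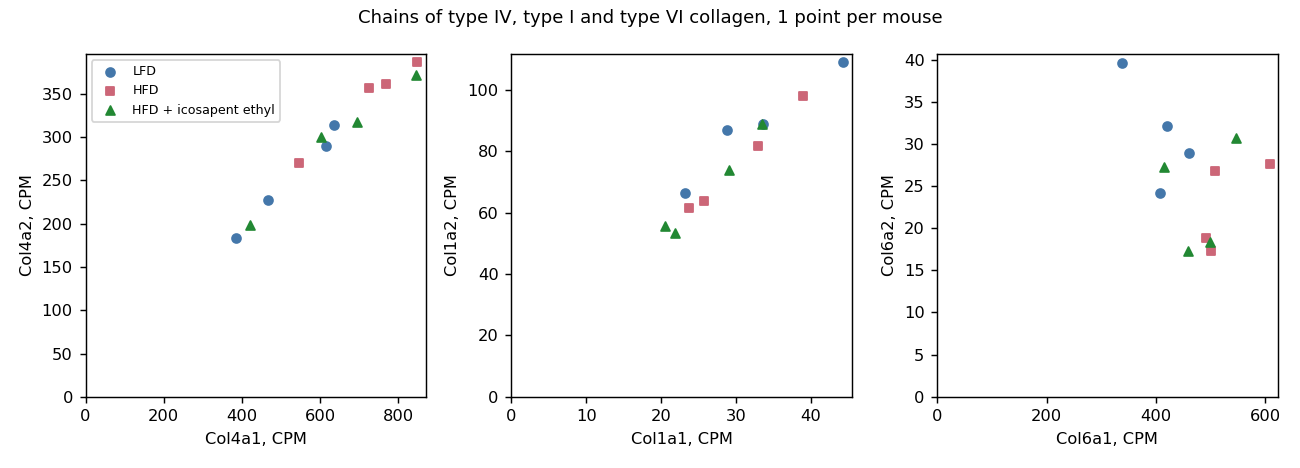
CPM of 3 pairs of partner chains, 1 point per mouse, colored by group, on axes that start at 0. *Col4a1* with *Col4a2* and *Col1a1* with *Col1a2* fall along lines (r of 0.990 and 0.963 on the log2 scale), whereas *Col6a1* and *Col6a2* do not.

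The comparison of HFD with icosapent ethyl against HFD alone addressed the effect of the supplement on the diet. By edgeR no gene passed (0% of 15913, with 1.39% at an unadjusted p below 0.05), and DESeq2 called 7 genes (0.0268% of 26076), none of them a collagen. At an unadjusted p below 0.05 there was 1 of 34 members, *Col5a3*, at -0.61 on the log2 scale (SE 0.22, 95% interval -1.12 to -0.11, adjusted p = 0.9997 by edgeR). Of the 4 mice given icosapent ethyl, 3 lay below all HFD mice and 1 (158 CPM) lay within their range. With the replicate number as a block, 4 of 34 members (11.8%) had an unadjusted p below 0.05, where 4.37% of all genes did in that fit, and the lowest adjusted p was 0.889. No member's groups failed to overlap, against 1.09% of all genes. Above 0 were 14 members and below 0 were 20, where 48.9% of all genes were below 0, and the median was -0.08.

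*Col28a1* had the largest value above 0 in this comparison, 0.70 (SE 0.37, 95% interval -0.15 to 1.55). *Col4a1* (-0.17, interval -0.66 to 0.32), *Col4a2* (-0.21, interval -0.64 to 0.22) and *Col6a1* (-0.14, interval -0.38 to 0.10) had intervals that held both 0 and a value as far below 0 as the HFD group was above LFD. *Col8a2* was at 0.36 (interval -0.34 to 1.05) and *Col1a1* at -0.21 (interval -0.67 to 0.25).

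Between HFD with icosapent ethyl and LFD, no gene passed in edgeR (0% of 15935, with 14% at an unadjusted p below 0.05), and DESeq2 called 417 (2.69% of 15501), none of them a collagen. No member had an unadjusted p below 0.05, and the lowest adjusted p was 0.376 (*Col9a2*, log2 fold change -1.01, SE 0.48). Above 0 were 12 members and below 0 were 22, where 50.6% of all genes were below 0, and the median was -0.13. *Col5a3* stood at 0.59 (SE 0.36), *Col6a1* at 0.24 (SE 0.12), *Col4a1* at 0.29 (SE 0.23) and *Col8a2* at -0.66 (SE 0.35). The 3 comparisons share groups, so their values are not independent of each other.

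Of 102 genes that fold, process, cross-link, degrade or bind collagens or drive their expression, 96 were tested. In HFD versus LFD 1 rose and 2 fell by edgeR, which is 3.1% of the 96 against 1.45% of all genes. At an unadjusted p below 0.05 there were 33.3%, against 24.8% of all genes. DESeq2 called 19 of the 96 (19.8%, 8 higher and 11 lower), against 12.3% of all genes, and edgeR with all 12 mice in 1 fit called 11 (11.5%), against 3.42% of all genes. *Timp4*, an inhibitor of matrix metalloproteinases, rose from 0.628 ± 0.106 to 1.92 ± 0.466 CPM (log2 fold change 1.60, SE 0.26, adjusted p = 0.0395). *Mmp12*, the macrophage metalloelastase, fell from 89.1 ± 17.6 to 22.9 ± 9.92 CPM, beside a lower sum of the macrophage markers. Its log2 fold change was -1.96 (SE 0.30, adjusted p = 0.0376 by edgeR). *P3h3*, of the prolyl 3-hydroxylase family, fell from 45.5 ± 2.14 to 31.2 ± 3.997 CPM (log2 fold change -0.55, SE 0.11, adjusted p = 0.0480). In all 3 genes the 4 HFD mice did not overlap with the 4 LFD mice, where 13.6% of all genes did not. Of the 8 fits that each left out 1 mouse, 7, 6 and 7 lost these calls, respectively, and the chromaffin covariate ended all 3. With library totals in place of TMM *Timp4* and *P3h3* also missed the threshold (adjusted p = 0.0515 and 0.0689 by edgeR), and *P3h3* did so with the size factors of DESeq2 (adjusted p = 0.0511 by edgeR). In the other comparisons no partner gene passed by edgeR. DESeq2 called 8 of 96 (8.3%) between HFD with icosapent ethyl and LFD, *Mmp12*, *Dcn* and *Bgn* among them, and none of 99 between HFD with icosapent ethyl and HFD.

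By role, and by edgeR with the counts of DESeq2 given at the end, folding and modification had 0 up and 1 down of 20, with *P4hb*, *Plod2* and *Serpinh1*, the collagen chaperone, at 0.18, 0.32 and -0.09. Processing and cross-linking had none of 13, with *Bmp1*, the procollagen C-proteinase, at 0.44 (SE 0.12, adjusted p = 0.0894), *Pxdn*, which cross-links type IV collagen, at 0.46 (SE 0.19) and *Pcolce* at 0.13. Degradation and its inhibitors had 1 up and 1 down of 13, with *Mmp14*, *Timp2* and *Timp3* at 0.23, -0.40 and 0.13. Receptors had none of 9, with *Itgb1*, *Ddr1* and *Ddr2* at 0.13, -0.18 and -0.17. Basement membrane partners had none of 16, with *Lamb1*, *Sparc* and *Hspg2* at 0.52 (SE 0.12, adjusted p = 0.0662), 0.45 (SE 0.13, adjusted p = 0.0883) and 0.32. TGF-beta ligands, receptors and targets had none of 16, with *Ltbp3* at 0.49, *Tgfbr2* at 0.05 and *Tgfbr3* at -0.14. DESeq2, which called 12.3% of all genes, called 1 of 20 folding genes and 2 of 13 processing genes (*Bmp1* with an adjusted p of 0.0445). It also called 3 of 13 degradation genes and 1 of 9 receptors. Among basement membrane partners it called 3 of 16 (*Lamb1* with an adjusted p of 0.0166 and *Sparc* with 0.0280 among them). Among TGF-beta genes it called 4 of 16 (*Ltbp3* with an adjusted p of 0.0497). Folding genes and receptors lay below the share over all genes, and the other lists in this paragraph lay above it. Whether these shares differ from that of all genes was not tested.

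The small proteoglycans that coat collagen fibrils had values below 0 in HFD versus LFD in all 9 tested genes, and their median was -0.59 on the log2 scale, against -0.01 over all genes. None passed the adjusted threshold in the edgeR fit of these 8 mice, and 7 of 9 had an unadjusted p below 0.05, against 24.8% of all genes. *Dcn* had 284, 180, 178 and 251 CPM in LFD and 146, 118, 112 and 86.2 in HFD, without overlap (log2 fold change -0.96, SE 0.20, adjusted p = 0.0553). *Bgn* and *Ogn* were at -0.38 (SE 0.09, adjusted p = 0.0666) and -0.82 (SE 0.21, adjusted p = 0.0747), without overlap either, where 13.6% of all genes did not overlap. These 3 genes passed in the edgeR fit of all 12 mice (adjusted p = 0.0359, 0.0459 and 0.0484) and by DESeq2 (adjusted p = 0.00103, 0.0158 and 0.00830). The fit of all 12 mice called 3 of the 9 (33.3%), against 3.42% of all genes. DESeq2 called 5 of the 9 (55.6%), against 12.3% of all genes. Fibroblast and capsule markers moved with the proteoglycans, as given above, and their part was not tested.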

How the data were processed

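Total RNA of the adrenal cortex of 12 mice was sequenced from stranded libraries. Per the labels and the study's methods, the authors trimmed reads with cutadapt, aligned them with STAR to GRCm38 (GENCODE M12) and counted reads per gene and strand with HTSeq 0.6.1p1. The deposited values are raw counts per gene for each mouse, with no normalization. Symbols, positions and exon lengths came from GENCODE M21 (GRCm38), which named 49326 of the 49585 genes. The exon length of a gene is the union of the exons of all its transcripts. The lists and members were chosen with earlier results of these data known.

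Each pair of groups was fitted with edgeR 4.0.16 (R 4.3.3) by the quasi-likelihood test with TMM normalization, after a filter at a minimum count of 10, and p-values were Benjamini-Hochberg adjusted over all genes, at a threshold of 0.05. The SE was derived from the fold change and its F statistic. Displayed CPM are scaled by TMM over all 12 mice. DESeq2 1.42.0, other scalings and filters, a joint fit, marker covariates and leaving out each mouse served as alternatives. Correlations used log2(CPM + 0.5) and 100000 resamples (two-sided, scipy 1.17.1). Named genes were all members, partner or marker genes that passed in any comparison, the 3 most abundant partner genes of each list and the most abundant gene of each marker list. One gene symbol of the lists was replaced by the annotation's symbol after the counts were read.

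The HFD and icosapent ethyl groups share replicate numbers 1 to 4. After subtraction of group means, mice with equal numbers had correlations of 0.24, 0.116, 0.341 and 0.632, while 1 pair of unlike number reached 0.598. A fit with the number as a block was therefore run. LFD shares only number 2 with the others. The fit was tested on counts simulated for 4 HFD against 4 LFD mice. Of 200 changed genes it recovered 102 (51%) at 2-fold and 183 (91.5%) at 4-fold, with 9 and 10 false calls. So it missed many changes of 2-fold. Intervals and floors cover counting error or mouse-to-mouse spread only.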

Additional observations from a re-analysis of the deposited data

Results flagged for a closer look

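In 5 of the 102 groups of 4 mice examined (34 collagen genes in 3 groups, 4.90%) 1 mouse stood apart from the others by Dixon's test, where chance gives about 1 in 20. HFD mouse 1 was apart in *Col4a3*, at 3.06 CPM with the others at 4.01 to 4.13, and in *Col11a1*, at 2.41 CPM with the others at 0.570 to 0.803. HFD mouse 2 was apart in *Col6a1*, at 609 CPM with the others at 492 to 508. LFD mouse 5 was apart in *Col5a1*, at 72.7 CPM with the others at 46.2 to 48.8, and LFD mouse 6 in *Col6a3*, at 12.2 CPM with the others at 17.5 to 18.4. Without HFD mouse 1 the log2 fold change of *Col11a1* in HFD versus LFD was -1.23 in place of -0.57.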

How the results depend on the processing

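In HFD versus LFD the count of genes past the threshold, 230 by edgeR, was 1965 by DESeq2, 84 with library totals, 556 with all 12 mice in 1 fit, 2623 with the adipocyte and 0 with the chromaffin covariate, 1396 at an adjusted p below 0.1, and 0 to 918 when 1 mouse was left out. It was 0 without HFD mouse 2, 3 or 4 or LFD mouse 5, 6 or 7, 78 without LFD mouse 2 and 918 without HFD mouse 1. The count of collagen genes, 0, was 2 by DESeq2, 8 with the adipocyte covariate and 3 at an adjusted p below 0.1, and stayed 0 under every other setting, each left-out mouse included. Members at an unadjusted p below 0.05, 10 of 34 by edgeR (29.4%, against 24.8% of all genes), were 6 in the joint fit (17.6%, against 26%). With the chromaffin covariate there was 1 (2.94%, against 9.01%). Leaving out 1 mouse gave 3 (8.82%, against 17.6%, without HFD mouse 4) to 10 (29.4%, against 16.8%, without LFD mouse 6). In the icosapent ethyl group against HFD, DESeq2 called 7 genes. Against LFD it called 417, the joint fit 2, the adipocyte covariate 1, and leaving out a mouse gave 0 to 1, with 1 without mouse 2 of the icosapent ethyl group. The fibril-associated sum per kilobase in HFD was 10.6 with TMM and 10.2 with library totals. The cause of these differences was not tested.

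The log2 fold changes that turned sign all belonged to genes that had not passed the test. In HFD versus LFD *Col23a1* was 0.0068 by DESeq2, 0.0018 with its size factors, 0.0049 in the joint fit and 0.000553 without a filter. With the adipocyte covariate *Col3a1*, *Col14a1* and *Col23a1* were -0.023, 0.061 and 0.023, and with the chromaffin covariate *Col6a6*, *Col11a1*, *Col15a1*, *Col23a1*, *Timp3* and *Tgfbr2* were 0.00076, 0.39, -0.10, 0.041, -0.092 and -0.15. With library totals *Tgfbr2* was -0.045.

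In icosapent ethyl against HFD the adipocyte covariate gave *Col3a1*, *Col4a3*, *Col4a5*, *Col4a6*, *Col5a2*, *Col6a2* and *Col6a6* -0.17, 0.018, -0.0041, -0.13, -0.040, -0.066 and -0.084. The chromaffin covariate gave *Col4a3*, *Col5a2*, *Col6a2*, *Col6a6*, *Col9a2*, *Col11a1* and *Col12a1* 0.0059, -0.075, -0.029, -0.013, -0.0051, -0.043 and 0.0033, and library totals gave *Col4a3* 0.057. The replicate block gave *Col3a1*, *Col4a6*, *Col5a2* and *Col12a1* -0.0062, -0.023, -0.0030 and 0.0034. The block left 0 genes past the threshold and changed no other call. No paired analysis was possible because LFD shares only number 2 with the other groups in the remaining comparisons. Against LFD the adipocyte covariate gave *Col3a1*, *Col13a1*, *Col15a1* and *Col18a1* -0.12, 0.12, 0.15 and 0.043, the chromaffin covariate gave *Col6a6*, *Col7a1*, *Col11a1* and *Col28a1* 0.056, -0.16, 0.20 and 0.21, and library totals gave *Col7a1* -0.020.

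When 1 mouse was left out, the log2 fold changes that turned sign in HFD versus LFD ranged over -0.20 to 0.11 (*Col14a1*), -0.24 to 0.090 (*Col1a1*), -0.16 to 0.10 (*Col23a1*), -0.071 to 0.35 (*Col3a1*), -0.0080 to 0.22 (*Col6a3*), -0.35 to 0.036 (*Col6a6*), -0.27 to 0.029 (*Serpinh1*) and -0.036 to 0.13 (*Tgfbr2*). In icosapent ethyl against HFD they ranged over -0.19 to 0.22 (*Col12a1*), -0.42 to 0.068 (*Col14a1*), -0.45 to 0.15 (*Col20a1*), -0.21 to 0.017 (*Col22a1*), -0.30 to 0.29 (*Col3a1*), -0.14 to 0.15 (*Col4a3*), -0.030 to 0.14 (*Col4a4*), -0.089 to 0.27 (*Col4a5*), -0.29 to 0.21 (*Col4a6*), -0.30 to 0.14 (*Col5a1*), -0.16 to 0.13 (*Col5a2*), -0.10 to 0.17 (*Col6a2*) and -0.16 to 0.22 (*Col6a6*). Against LFD they ranged over -0.24 to 0.092 (*Col13a1*), -0.47 to 0.050 (*Col14a1*), -0.17 to 0.054 (*Col15a1*), -0.10 to 0.064 (*Col18a1*), -0.44 to 0.10 (*Col25a1*), -0.21 to 0.33 (*Col27a1*), -0.14 to 0.42 (*Col3a1*), -0.0074 to 0.38 (*Col5a1*), -0.020 to 0.27 (*Col5a2*) and -0.22 to 0.18 (*Col7a1*). With 4 mice a group, the intervals given in the report bound what the absence of a call shows.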
